A study of Mus musculus with 35 samples.

Results

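The genes described here are 10 transcripts of steroid synthesis that Leydig cells, the androgen-producing cells between the testis tubules, are known for: Star, Fdx1, Cyp11a1, Cyp17a1, Hsd3b1, Hsd3b6, Hsd17b3, Akr1c14, Srd5a1 and Hsd11b1. They were chosen by symbol, through the gene annotation of each array type, out of 19938 genes with a probe set of their own at postnatal day 15 and 18194 at day 25. At day 15, 9 of the 10 had one, and at day 25, 8. Srd5a1, a steroid reductase, is absent from the annotation used for both array types. Hsd3b6 at day 25 is listed only on a probe set shared with its relatives Hsd3b3 and Hsd3b2. The genes of this family are close in sequence, so a probe set of 1 member may also bind RNA of another, and the share of each was not tested.

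RNA of whole testis from male C57BL6 mice was hybridised, 1 array per mouse, on 18 arrays of 1 type at day 15 and 17 arrays of a second type at day 25. The study crosses Akt1 genotype with exposure to propylthiouracil (PTU), a drug that blocks the making of thyroid hormone, so the groups are exposed and unexposed Akt1-/- (homozygous), exposed and unexposed Akt1+/- (heterozygous), and exposed and unexposed Akt1+/+ (wild type) mice. Each group has 3 arrays at each age, except exposed homozygous mice at day 25, which have 2; the authors left out the third array for quality. Dose, timing and route of PTU, the part of Akt1 that was deleted and the litters are not given in the sources used here. Whole testis was read, so a lower value cannot tell fewer Leydig cells from less RNA per cell. Values are log2 intensities after RMA, differences are log2 differences ± the standard error of limma, and a gene is said to rise or fall where its adjusted p, over all genes tested, is under 0.05. Since the array types differ, levels are not compared across the ages. Where the arrays of groups are said not to overlap, this is a description. The share of all genes without overlap was not counted.

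Testosterone is made from cholesterol in a short chain. Star, the transport protein, brings cholesterol to the inner mitochondrial membrane, where Cyp11a1, fed with electrons through the ferredoxin Fdx1, cuts its side chain. The 3-beta-hydroxysteroid dehydrogenases Hsd3b1 and Hsd3b6, the 17-alpha-hydroxylase Cyp17a1 and the 17-beta-hydroxysteroid dehydrogenase Hsd17b3 complete the path, and the reductases Srd5a1 and Akr1c14 turn androgen into androstanediol in the immature Leydig cells of rodents. In mice, Hsd3b6 marks the adult generation of Leydig cells, Hsd3b1 is found in both generations, and Hsd17b3 is low in fetal Leydig cells and high in adult ones, with Sertoli cells supplying that step in the fetal testis. Hsd11b1 interconverts active and inactive glucocorticoid. In rats, a low thyroid hormone state in early life is known to delay the appearance of adult Leydig cells.

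The promoters of 4 of these genes are printed because their transcripts gave the changes described below: Hsd3b6, Hsd17b3 and Akr1c14 at day 15, and Cyp11a1 at day 25. The windows run from 250 bases before to 50 after the gene start in RefSeq, build GRCm38.p6, and 8 of the 10 genes matched that table, all but Star and Cyp17a1, with 9 windows between them.
Hsd3b6, chr3:98814394-98814693, minus strand: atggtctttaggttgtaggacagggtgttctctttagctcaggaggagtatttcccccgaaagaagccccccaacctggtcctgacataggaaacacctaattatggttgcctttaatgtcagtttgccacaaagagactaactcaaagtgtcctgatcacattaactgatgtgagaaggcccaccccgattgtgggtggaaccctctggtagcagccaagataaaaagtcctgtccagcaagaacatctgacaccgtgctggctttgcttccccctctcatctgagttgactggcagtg
Hsd17b3, chr13:64089152-64089451, minus strand: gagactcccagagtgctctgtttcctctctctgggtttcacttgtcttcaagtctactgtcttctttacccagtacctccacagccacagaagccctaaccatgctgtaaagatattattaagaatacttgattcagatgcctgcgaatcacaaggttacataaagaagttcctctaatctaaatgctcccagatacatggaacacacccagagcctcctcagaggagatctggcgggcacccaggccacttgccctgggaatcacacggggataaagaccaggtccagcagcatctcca
Akr1c14, chr13:4059341-4059640, plus strand: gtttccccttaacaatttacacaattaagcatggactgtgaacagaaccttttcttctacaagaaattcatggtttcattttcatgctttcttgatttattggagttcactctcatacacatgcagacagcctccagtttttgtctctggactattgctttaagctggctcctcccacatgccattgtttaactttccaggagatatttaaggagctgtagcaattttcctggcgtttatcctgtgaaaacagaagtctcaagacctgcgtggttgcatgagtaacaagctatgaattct
Cyp11a1, the second of 2 windows, chr9:58014702-58015001, plus strand: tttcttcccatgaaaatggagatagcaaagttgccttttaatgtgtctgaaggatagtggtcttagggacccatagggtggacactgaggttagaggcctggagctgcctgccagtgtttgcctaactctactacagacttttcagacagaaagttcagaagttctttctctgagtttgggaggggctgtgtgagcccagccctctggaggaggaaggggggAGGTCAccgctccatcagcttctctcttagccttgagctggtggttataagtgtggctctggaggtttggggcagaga
The capitals mark AGGTCA, a half-site letter run read by nuclear receptors, which lies 28 bases before the gene start. The run was searched on both strands, was added after the values were seen, and is held by 1 of the 9 windows and by 16.3% of all 32851 promoter windows of that length. The longer CAAGGNCA, the letters bound by Nr5a1 (steroidogenic factor 1, the main regulator of steroid genes), was found on neither strand of any of the 9 windows and in 6.71% of all windows. With T at its open position it contains the shorter run. A match is a run of letters and not a site, and a window without one shows only that the letters are not there.

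Some arrays stood apart from their groups. At day 15 the epididymal transcript Spink8 was above 7 in unexposed wild-type arrays 2 and 3 and exposed homozygous array 2. Leaving these out keeps only array 1 of the unexposed wild-type group, which limits every such fit that uses that group. The arrays were also clustered by bright probe sets without a gene symbol, and the clustering was made to give 2 sets whatever the data. Whether such sets exist was not tested. The second set held 6 arrays. They were exposed homozygous 2 and 3, unexposed homozygous 3, exposed heterozygous 3 and unexposed heterozygous 2 and 3. All wild-type arrays were in the first set, so array set and genotype are partly tied at day 15. At day 25 both exposed homozygous arrays differed widely from the rest: Spink8 read 12.92 and 12.75 there, against 5.74 to 6.25 in unexposed homozygous testes, and Tnp1, a nuclear protein of spermatids, read 5.32 to 5.36, against 12.40 to 13.31 in unexposed homozygous testes. Spink8 was also above 7 in exposed heterozygous array 2 and exposed wild-type array 3. Akt1 itself did not pass the test for homozygous against wild type at day 15 (-0.68 ± 0.22 in exposed and -0.28 ± 0.22 in unexposed testes, adjusted p = 0.101 and 0.35) or at day 25 (-0.0015 ± 0.09 and -0.12 ± 0.08, adjusted p = 0.99 and 0.383). Without knowing which part of Akt1 was deleted, its probe set is no test of the genotype. The summed level of 4 adrenal cortex genes lay between 7.47 and 8.13 at day 15 and between 7.24 and 7.61 at day 25. Among them Mc2r, also listed as a fetal Leydig marker, lay between 3.54 and 4.41 at day 15, below the filter. At day 25 it lay between 4.24 and 5.11. Of 3 adrenal genes tested at each age none passed in any comparison, except 1 that fell with PTU at day 25 averaged over genotypes.

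Which steps of the path PTU changed at day 15 was asked first, averaged over the 3 genotypes. Hsd3b6 fell by 2.84 ± 0.37 (adjusted p = 1.68e-04), the largest fall of all 16710 genes tested. Hsd17b3 rose by 1.73 ± 0.17 (adjusted p = 1.47e-05), the largest rise of all genes tested, and Akr1c14 rose by 0.94 ± 0.11 (adjusted p = 6.17e-05), the sixth largest. Of the 8 members tested, 2 rose, 1 fell and 5 did not pass, against 12% of all genes called (3.88% higher and 8.09% lower). The median difference of the members was 0.04 and that of all genes 0.02.

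Hsd3b6, the dehydrogenase of adult Leydig cells, read 7.91, 5.47 and 5.96 in exposed homozygous testes, against 9.11, 9.33 and 8.31 in unexposed homozygous testes. In heterozygous testes it read 5.68, 6.68 and 7.82 with PTU, against 10.23, 9.75 and 8.82 without. In wild-type testes it read 8.96, 6.57 and 7.17 with PTU, against 10.81, 10.88 and 10.54 without. Every exposed array lay below every unexposed array of its own genotype, and the lowest exposed arrays, 5.47 and 5.68, were near the filter of 5.56. The difference was -2.47 ± 0.64 in homozygous (5.53-fold lower, adjusted p = 0.0346), -2.87 ± 0.64 in heterozygous (7.33-fold, adjusted p = 0.0506, not called) and -3.18 ± 0.64 in wild-type testes (9.06-fold, adjusted p = 0.00307). No label gives a pairing, but by correlations of residuals the sample numbers were taken to pair the heterozygous arrays. With sample number as a block the heterozygous fall passed (-2.87, adjusted p = 0.0441). That block was fitted over all 6 groups, also those whose numbers did not pair. The homozygous call was lost without exposed array 2 or 3 or unexposed array 1 or 2 (-2.37 to -1.98, adjusted p = 0.0867 to 0.178) and with array set as a block (-2.27, adjusted p = 0.0601). The array set block gave the heterozygous fall a call (-3.08, adjusted p = 0.0474).

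Hsd17b3, the last enzyme before testosterone, moved the other way. It read 9.63, 10.37 and 10.76 in exposed homozygous testes, against 8.85, 8.71 and 8.61 in unexposed ones, a rise of 1.53 ± 0.29 (2.88-fold, adjusted p = 0.00869). In heterozygous testes it read 10.26, 10.05 and 9.23 with PTU, against 7.98, 8.37 and 8.05 without (1.71 ± 0.29, 3.28-fold, adjusted p = 0.00972). In wild-type testes it read 8.97, 10.05 and 9.67 with PTU, against 7.63, 7.70 and 7.49 without (1.96 ± 0.29, 3.90-fold, adjusted p = 2.40e-04). The exposed and unexposed arrays did not overlap in any genotype. Over the 6 groups the means of Hsd17b3 ran from 10.25 ± 0.58 in exposed homozygous testes down to 7.60 ± 0.11 in unexposed wild-type testes (SD, n = 3 each), through 9.85 in exposed heterozygous, 9.57 in exposed wild-type, 8.72 in unexposed homozygous and 8.13 in unexposed heterozygous testes. Hsd3b6 had the same groups in the reverse order, from 6.45 ± 1.29 up to 10.74 ± 0.18. The 3 exposed groups are neighbours in that order and overlap one another in both genes.

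**Figure D1:**
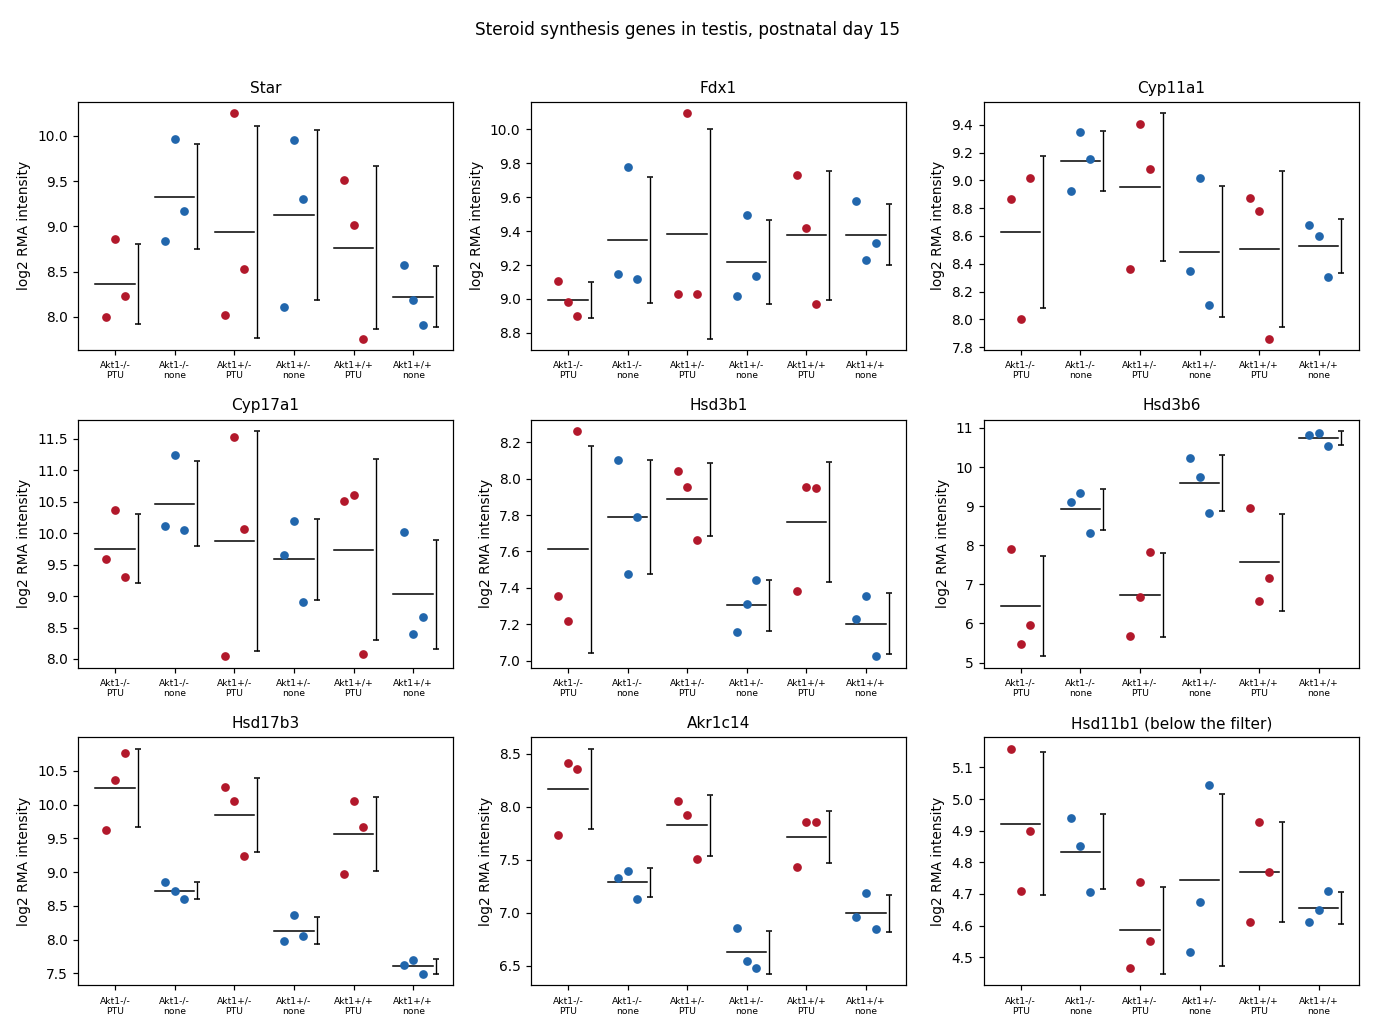
Level of 9 steroid synthesis genes in each array at postnatal day 15, with the log2 RMA intensity on the vertical axis of each panel. Points are arrays (red with PTU, blue without, n = 3 per group), horizontal lines are group means and vertical bars ± 1 SD; Hsd3b6 lay lower and Hsd17b3 and Akr1c14 lay higher in every exposed array than in the unexposed arrays of the same genotype, and the panels have different vertical ranges.

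Akr1c14, the 3-alpha-reductase that makes androstanediol, read 7.73, 8.41 and 8.36 in exposed homozygous testes, against 7.33, 7.39 and 7.13 in unexposed ones. With PTU, heterozygous testes had 8.05, 7.92 and 7.50 and wild-type testes 7.43, 7.86 and 7.85; without PTU, heterozygous testes had 6.86, 6.54 and 6.48 and wild-type testes 6.96, 7.18 and 6.84. Exposed arrays were again the higher in each genotype. The gene rose in all 3 genotypes, by 0.88 ± 0.18 (adjusted p = 0.0122), 1.20 ± 0.18 (adjusted p = 0.00709) and 0.72 ± 0.18 (adjusted p = 0.0132) in homozygous, heterozygous and wild-type testes. The share of all genes called in these contrasts was 4.96%, 0.569% and 15.3%, and 3, 2 and 3 of the 8 members were called. By direction, 0.586%, 0.192% and 6.53% of all genes were called higher, and in homozygous and wild-type testes 4.37% and 8.75% were called lower.

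Some of the calls within a genotype rested on few arrays. Averaged over genotypes, Hsd3b6, Hsd17b3 and Akr1c14 passed under all 25 alternatives run (adjusted p at most 0.00496), with differences of -3.25 to -2.67, 1.65 to 1.86 and 0.89 to 1.04. Within homozygous testes all 3 missed the threshold without the 3 arrays high in Spink8, at -1.98, 1.47 and 0.76 (adjusted p = 0.263, 0.114 and 0.136). Without exposed homozygous array 2 alone, the adjusted p was 0.178, 0.0578 and 0.0841, and with the 2 homozygous groups fitted alone it was 0.098, 0.0716 and 0.0936. Hsd17b3 in wild-type testes passed under all 14 alternatives run (1.72 to 2.26, adjusted p at most 0.022). In wild-type testes the fit without the Spink8 arrays keeps only unexposed array 1. There Hsd3b6 (-3.25) and Akr1c14 (0.76) lost their calls with nearly the same difference. In heterozygous testes, leaving out exposed array 1 ended the calls of Hsd17b3 (1.51, adjusted p = 0.0883) and Akr1c14 (1.09, adjusted p = 0.0649). Hsd17b3 also missed the threshold there without unexposed array 1 or 3 (adjusted p = 0.0506 and 0.0517). Akr1c14 in wild-type testes lost its call without exposed array 2 or 3 or unexposed array 1 or 3 (adjusted p = 0.0557 to 0.0721), and in homozygous testes without unexposed array 1 (adjusted p = 0.055).

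Star, Fdx1, Cyp11a1, Cyp17a1 and Hsd3b1 were not called for PTU at day 15 in the main fit. Star read 8.00, 8.86 and 8.23 in exposed homozygous testes, against 8.84, 9.97 and 9.17 in unexposed ones, and 9.51, 9.02 and 7.76 in exposed wild-type testes, against 8.57, 8.19 and 7.91 in unexposed ones. Its averaged PTU difference was -0.20 ± 0.31 (adjusted p = 0.719). Cyp17a1 spread even more, from 8.04 to 11.53 among the 3 exposed heterozygous arrays and from 8.07 to 10.61 among the exposed wild-type ones, with an averaged difference of 0.10 ± 0.43. Cyp11a1 (-0.02 ± 0.18) and Fdx1 (-0.06 ± 0.15) had smaller differences. The standard errors of Star and Cyp17a1 were well above the 0.11 of Akr1c14, so a change of that gene's size would be harder to see in them. Hsd3b1 was higher by 0.32 ± 0.13 (adjusted p = 0.127) and passed with array weights (0.43, adjusted p = 0.0178). It differed by 0.56 ± 0.23 in wild-type, 0.58 ± 0.23 in heterozygous and -0.18 ± 0.23 in homozygous testes. The wild-type difference passed with array weights (adjusted p = 0.00115), with its groups fitted alone (0.0443) and without exposed wild-type array 1 (0.0438). The remaining alternatives left it uncalled. Hsd11b1 lay between 4.47 and 5.16, below the filter of 5.56, and was not tested in the main fit; its averaged difference without the filter was 0.01 ± 0.08.

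Cell type markers moved at the same age. Of all genes, 3.88% were called higher and 8.09% lower with PTU on average. The shares were 6.53% and 8.75% in wild-type and 0.586% and 4.37% in homozygous testes. All 7 macrophage genes fell with PTU on average; their summed level was 9.94 to 10.33 in exposed and 10.50 to 10.65 in unexposed homozygous testes, and 10.13 to 10.54 in exposed and 10.94 to 11.21 in unexposed wild-type testes. The summed level of 6 spermatocyte genes was 11.98 to 12.70 in exposed and 13.33 to 13.75 in unexposed wild-type testes, and 11.55 to 12.51 in exposed and 10.92 to 11.77 in unexposed homozygous testes, with 5 of the 6 falling in wild-type and none passing in homozygous testes. Of 9 Sertoli genes 3 fell and 0 rose on average; their summed level was 14.00 to 14.16 with PTU and 14.27 to 14.46 without in homozygous testes (2 fell), and 14.18 to 14.21 with PTU and 14.13 to 14.25 without in wild-type testes (3 rose and 1 fell). Thbs2, the 1 fetal Leydig marker tested, rose by 0.56 on average, with 7.95 to 8.48 in exposed and 7.26 to 7.68 in unexposed wild-type testes, but 8.43 to 8.55 in exposed and 8.40 to 8.42 in unexposed homozygous testes. Of the adult Leydig markers other than Hsd3b6, Vcam1 fell and Ptgds rose on average, and neither passed in wild-type testes. Vcam1 read 8.82 to 9.53 in exposed and 9.65 to 10.28 in unexposed homozygous testes, and 9.15 to 9.81 in exposed and 9.85 to 10.52 in unexposed wild-type testes. Ptgds read 7.25 to 7.59 in exposed and 6.73 to 6.98 in unexposed homozygous testes, and 7.16 to 7.42 in exposed and 7.04 to 7.29 in unexposed wild-type testes, where the groups overlapped. The part of these cell types in the results was not tested.

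At day 15, 2 of the 8 members were called between unexposed genotypes. Hsd3b6 fell in homozygous against wild-type mice (-1.83 ± 0.64, 3.56-fold, adjusted p = 0.0401) and Hsd17b3 rose (1.12 ± 0.29, 2.17-fold, adjusted p = 0.00746). The other members tested were 1.10 ± 0.54 (Star), 0.61 ± 0.31 (Cyp11a1), 1.44 ± 0.74 (Cyp17a1), 0.59 ± 0.23 (Hsd3b1), 0.29 ± 0.18 (Akr1c14) and -0.03 ± 0.25 (Fdx1), none of them called, with adjusted p from 0.0636 to 0.942. With 2 of 8 members called against 28.9% of all genes (14.6% higher and 14.2% lower), the count is near the background. This comparison uses the unexposed arrays of the PTU comparisons as well, so their values are given side by side only. Hsd3b6 lost its call on leaving out any 1 of the 6 arrays (-2.04 to -1.53, adjusted p = 0.0542 to 0.127) and with array set as a block (-1.63, adjusted p = 0.07). It also lost its call without the Spink8 arrays (-1.90), where only unexposed wild-type array 1 is left. Hsd17b3 lost its call in that same fit without the Spink8 arrays (1.10). Star (adjusted p = 0.0117), Cyp11a1 (0.00743), Cyp17a1 (0.0275) and Hsd3b1 (0.0179) passed when the 2 groups were fitted alone. Spermatocyte markers moved with this contrast: all 6 fell, with a median difference of -3.44, while 3 of 3 precursor and 4 of 9 Sertoli genes rose. Their part in the steroid gene values was not tested.

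Exposed homozygous and exposed wild-type testes gave no call for any member at day 15, nor for any gene (0%, 4266 genes at an unadjusted p under 0.05). By correlations of residuals, and not by a label, the sample numbers were taken to pair these arrays. With sample number as a block, fitted over all 6 groups, 750 genes and again 0 members passed. Array weights gave 1187 genes. Hsd3b6 differed by -1.12 ± 0.64 (adjusted p = 0.274) and Hsd17b3 by 0.68 ± 0.29 (adjusted p = 0.158). Leaving out exposed homozygous array 1 gave 3 members called; the other single arrays gave 0. Heterozygous testes lay between, at -1.14 ± 0.64 for Hsd3b6 and 0.53 ± 0.29 for Hsd17b3 against wild type without PTU (adjusted p = 0.297 and 0.28, 3.95% of all genes called), and at -0.84 ± 0.64 and 0.28 ± 0.29 with PTU (adjusted p = 0.849 and 0.858, 0% called, 887 genes at an unadjusted p under 0.05). The difference of the PTU effect between homozygous and wild-type testes, the interaction, passed for no member (16.4% of all genes called). The largest was that of Star, at -1.50 ± 0.77 (adjusted p = 0.191), and Hsd3b1 had the smallest p, at -0.74 ± 0.32 (adjusted p = 0.128). For heterozygous testes the interaction passed for 0 members as well, with 0.449% of all genes called.

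**Figure D2:**
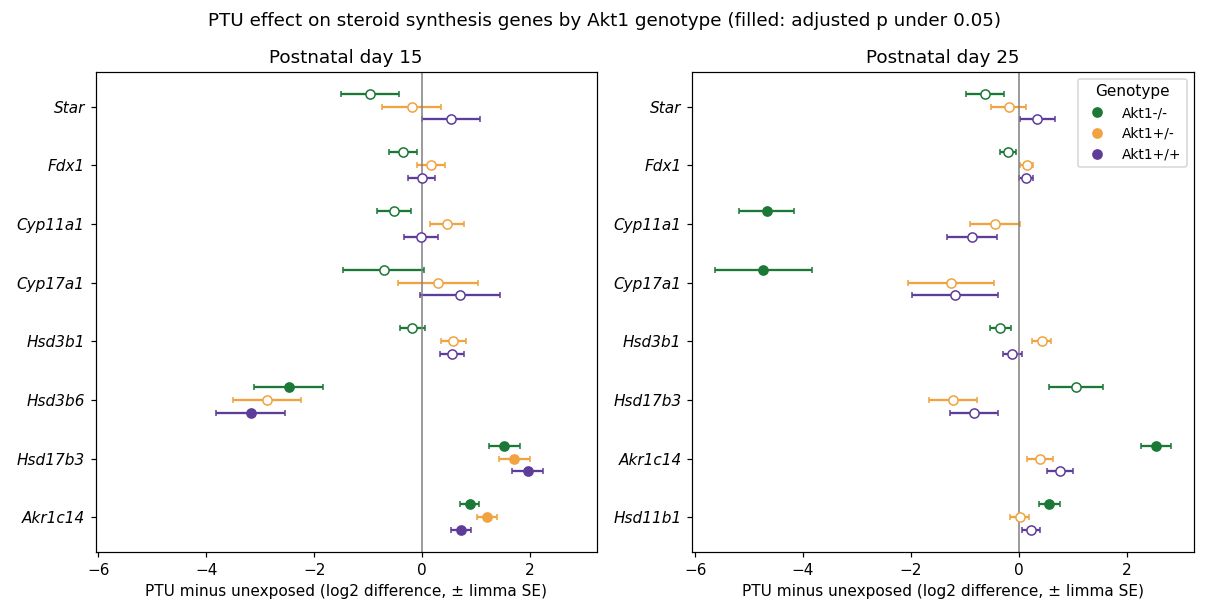
PTU difference of each tested gene in homozygous, heterozygous and wild-type testes, as log2 difference with the standard error of limma on the horizontal axis, at day 15 (left) and day 25 (right). Filled points have an adjusted p under 0.05; at day 15 the 3 genotypes lie together for Hsd3b6, Hsd17b3 and Akr1c14, and at day 25 Cyp11a1 and Cyp17a1 are set apart in homozygous testes at -4.67 and -4.74.

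Within groups, arrays also varied together, and this was measured on each array's deviation from its group mean, by an exact permutation test within groups over 28 pairs of members per age, two-sided. At day 15 the pairs that passed were Star with Fdx1 (r = 0.879, rho = 0.853, p = 0.0013, adjusted p = 0.0338), Cyp17a1 with Fdx1 (r = 0.812, rho = 0.75, p = 0.0026, adjusted p = 0.0338) and Star with Cyp17a1 (r = 0.803, rho = 0.664, p = 0.0036, adjusted p = 0.0338). By rank their adjusted p was 0.0597, 0.0597 and 0.0987. Without the 2 arrays farthest in the first gene r was 0.856, 0.732 and 0.842, within the larger array set 0.938, 0.885 and 0.851, and within the smaller 0.948, 0.455 and 0.579. Hsd3b6 and Hsd17b3 ran against each other (r = -0.795, rho = -0.628, p = 0.0221, adjusted p = 0.0882), and Hsd17b3 ran with Akr1c14 (r = 0.797, rho = 0.633, p = 0.0137, adjusted p = 0.0882), neither past the threshold after adjustment. No pair of Cyp11a1 passed, with Star at r = 0.59 (rho = 0.606, exact p = 0.067, adjusted p = 0.188) and with Fdx1 at r = 0.649 (rho = 0.659, exact p = 0.0187, adjusted p = 0.0882). Star and Hsd17b3 had r = 0.065 (rho = 0.212, exact p = 0.837).

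**Figure D3:**
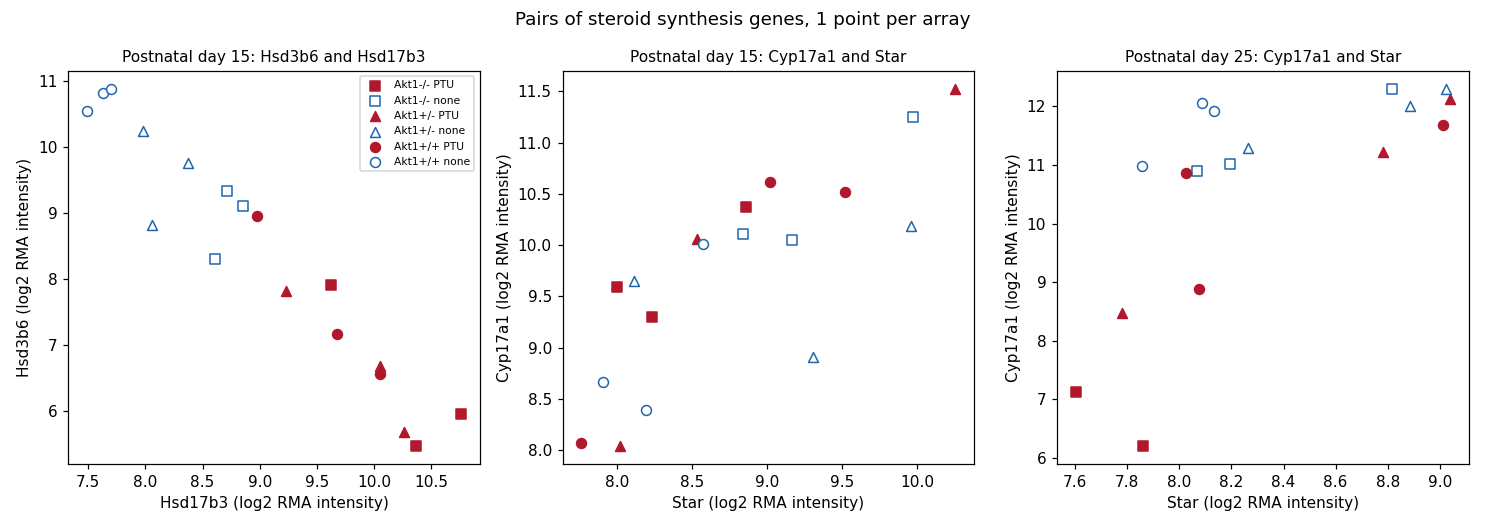
Each array's level of 2 genes plotted against each other, as log2 RMA intensity on both axes: Hsd3b6 against Hsd17b3 at day 15 (left) and Cyp17a1 against Star at day 15 (middle) and day 25 (right). Shape gives the genotype and filled red points are exposed; at day 15 the exposed arrays sit at high Hsd17b3 and low Hsd3b6, while exposed and unexposed arrays mix along the Star and Cyp17a1 axis.

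At day 25 the members called for PTU within a genotype were all in homozygous testes, where most genes of the array were called too. Cyp11a1, the side-chain cleavage enzyme, fell by 4.67 ± 0.51 (25.5-fold lower, adjusted p = 1.82e-06) and Cyp17a1 fell by 4.74 ± 0.89 (26.7-fold, adjusted p = 2.36e-04). Akr1c14 rose by 2.55 ± 0.27 (5.84-fold, adjusted p = 1.47e-06) and Hsd11b1 by 0.57 ± 0.19 (1.48-fold, adjusted p = 0.0159). Of 8 members tested 2 rose, 2 fell and 4 did not pass, against 71.2% of all genes called (38.4% higher and 32.8% lower). The count is not above the background. Ranked by size among 16305 genes, Cyp17a1 was number 133 and Cyp11a1 number 140 of the falls, and Akr1c14 number 74 of the rises. The median difference of the members was -0.27 and that of all genes 0.02. The exposed group has 2 arrays.

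Cyp11a1 read 6.57 and 5.47 in exposed homozygous testes, against 10.47, 11.36 and 10.25 in unexposed homozygous testes. Cyp17a1 read 6.21 and 7.13 with PTU, against 11.01, 12.30 and 10.90 without. The probe set of Hsd3b6, Hsd3b3 and Hsd3b2 read 5.87 and 4.99 with PTU, against 9.79, 10.25 and 9.15 without, a fall of 4.29 ± 0.40 (adjusted p = 5.75e-07 in a fit of 30382 probe sets). In these 3 both exposed arrays were far below every other array of day 25, the next lowest being 9.77 for Cyp11a1, 8.48 for Cyp17a1 and 9.09 for the shared probe set. Akr1c14 read 7.85 and 8.93 with PTU, against 5.93, 5.79 and 5.82 without, and both exposed values were above every other array. Hsd17b3 read 7.62 and 8.96 with PTU, against 7.27, 7.63 and 6.79 without (1.06 ± 0.50, adjusted p = 0.0701), and the groups overlapped.

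**Figure D4:**
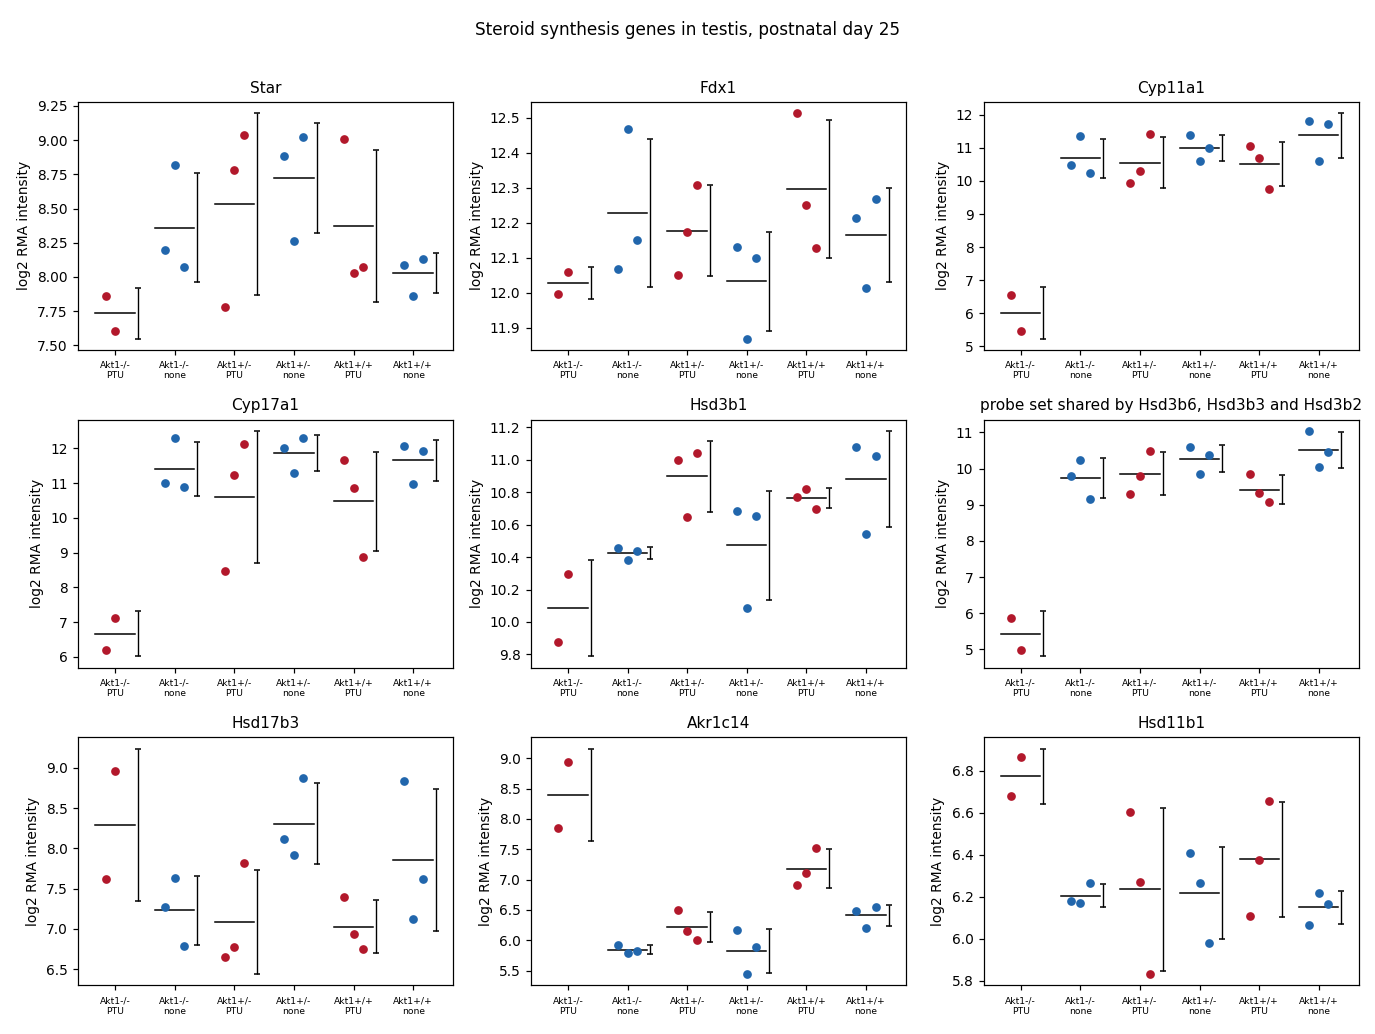
Level of 8 steroid synthesis genes and of the probe set shared by Hsd3b6, Hsd3b3 and Hsd3b2 in each array at postnatal day 25, with the log2 RMA intensity on the vertical axis of each panel. Points are arrays (red with PTU, blue without, n = 3 per group and 2 for exposed homozygous), lines are group means and bars ± 1 SD; the 2 exposed homozygous arrays lie apart in Cyp11a1, Cyp17a1, the shared probe set and Akr1c14, and the panels have different vertical ranges.

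The electron carrier and the other dehydrogenase had smaller differences. Fdx1 read 12.00 and 12.06 in exposed homozygous testes, against 12.07, 12.47 and 12.15 in unexposed ones (-0.20 ± 0.14, adjusted p = 0.213). Hsd3b1 read 9.88 and 10.29, against 10.45, 10.38 and 10.44 (-0.34 ± 0.19, adjusted p = 0.128). Neither passed. In both, the 2 exposed arrays lay below all unexposed ones. This is a description only, as the share of all genes without overlap was not counted. Hsd11b1 read 6.68 and 6.87 with PTU, against 6.18, 6.17 and 6.27 without, and its call was lost without exposed array 2 (0.47, adjusted p = 0.108) and with array weights (0.54, adjusted p = 0.245).

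Star depends on the probe set. The brightest of its 3 gave 7.86 and 7.60 in exposed homozygous testes, against 8.19, 8.82 and 8.07 in unexposed ones (-0.63 ± 0.36, adjusted p = 0.134 in the fit of all probe sets). Another probe set gave 5.67 and 5.17, against 7.08, 7.74 and 6.96, and fell by 1.84 ± 0.48 (adjusted p = 0.00346). The last one gave 6.54 and 6.45, against 6.32, 8.00 and 7.17 (-0.67 ± 0.63, adjusted p = 0.364). All 3 were lower in exposed homozygous testes, and 1 of the 3 passed. Against exposed wild-type testes, the 2 dimmer ones fell (-2.37 ± 0.48, adjusted p = 6.77e-04, and -1.59 ± 0.63, adjusted p = 0.042) and the brightest did not pass (-0.64 ± 0.36, adjusted p = 0.14). Cyp11a1 has 2 further probe sets, which are dim. One lay at 4.56 to 5.30 over all arrays, near the filter of 4.76, and rose in homozygous testes (0.46 ± 0.15, adjusted p = 0.0137), opposite to the bright one; the other lay at 3.73 to 4.55 and was not tested.

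In heterozygous and wild-type testes at day 25, no member passed for PTU. In wild-type testes no gene at all was called (0%, 978 genes at an unadjusted p under 0.05), and in heterozygous testes 18.7% of genes were. Cyp11a1 read 9.93, 10.30 and 11.42 in exposed heterozygous testes, against 11.40, 10.60 and 10.98 in unexposed ones (-0.44 ± 0.46), and 11.06, 10.69 and 9.77 in exposed wild-type testes, against 11.82, 10.60 and 11.71 (-0.87 ± 0.46, adjusted p = 0.859). The probe set of Hsd3b6, Hsd3b3 and Hsd3b2 is not counted among the members. In wild-type testes it read 9.86, 9.32 and 9.09 with PTU, against 11.04, 10.04 and 10.46 without, and the groups did not overlap. In heterozygous testes it read 9.31, 9.79 and 10.48 with PTU, against 10.59, 9.85 and 10.38 without, with overlap. Cyp17a1 had 1 low array in each exposed group, 8.48 beside 11.22 and 12.12 in heterozygous and 8.89 beside 11.67 and 10.86 in wild-type testes. Hsd17b3 was lower in both, at -1.22 ± 0.45 (adjusted p = 0.0696) and -0.83 ± 0.45 (adjusted p = 0.861), where homozygous testes had 1.06 ± 0.50. The heterozygous value passed without the exposed homozygous arrays (adjusted p = 0.0381) and without exposed heterozygous array 3 (-1.59, adjusted p = 0.037). Akr1c14 read 6.90, 7.10 and 7.53 in exposed wild-type testes, against 6.48, 6.21 and 6.54 (0.77 ± 0.24, adjusted p = 0.77), without overlap.

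Averaged over genotypes at day 25, Cyp11a1 (-2.00 ± 0.28) and Cyp17a1 (-2.39 ± 0.48) fell and Akr1c14 (1.24 ± 0.15) and Hsd11b1 (0.27 ± 0.10, adjusted p = 0.0321) rose, 4 of 8 against 63.9% of all genes (36.3% higher and 27.6% lower). The Hsd11b1 call was lost in 8 of the 17 fits without 1 array (adjusted p = 0.0507 to 0.0865), with array weights (adjusted p = 0.276) and with the block of sample number (adjusted p = 0.0532). These averages rest on the exposed homozygous arrays. Without them Cyp11a1 (-0.66, adjusted p = 0.158), Cyp17a1 (-1.22, adjusted p = 0.153) and Hsd11b1 (0.12, adjusted p = 0.525) no longer passed, Akr1c14 still did, and Hsd17b3 fell (-1.03, adjusted p = 0.0264). Without every array high in Spink8, 0 members passed and Akr1c14 had 0.51 (adjusted p = 0.0695).

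The effect of PTU itself differed between homozygous and wild-type testes at day 25 for 4 of 8 members, against 59.4% of all genes (33.1% higher and 26.3% lower). The interaction was -3.80 ± 0.69 for Cyp11a1 (adjusted p = 3.27e-04), -3.55 ± 1.20 for Cyp17a1 (adjusted p = 0.0191), 1.89 ± 0.67 for Hsd17b3 (adjusted p = 0.0247) and 1.78 ± 0.37 for Akr1c14 (adjusted p = 8.17e-04). That of Cyp17a1 missed the threshold without exposed homozygous array 1 (-3.09, adjusted p = 0.064) or exposed wild-type array 1 (-2.95, adjusted p = 0.0513). That of Hsd17b3 missed it without exposed homozygous array 2 (1.22, adjusted p = 0.169), and likewise without unexposed homozygous array 3, exposed wild-type array 3 or unexposed wild-type array 1 (1.40 to 1.75, adjusted p = 0.0514 to 0.0618). With array weights neither passed (adjusted p = 0.105 and 0.106). The heterozygous interaction passed for no member and no gene by limma (0%, 2982 genes at an unadjusted p under 0.05).

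Between exposed homozygous and exposed wild-type testes, which share the exposed homozygous arrays with the comparison above, 5 of 8 members were called, against 61.1% of all genes (32.7% higher and 28.4% lower). Cyp11a1 (-4.49 ± 0.51), Cyp17a1 (-3.81 ± 0.89) and Hsd3b1 (-0.68 ± 0.19, adjusted p = 0.00716) fell, and Akr1c14 (1.22 ± 0.27) and Hsd17b3 (1.26 ± 0.50, adjusted p = 0.0398) rose. Cyp11a1 was number 18 of the falls by size. The Hsd17b3 call was lost without exposed homozygous array 2 (0.59, adjusted p = 0.432), without exposed wild-type array 2 or 3 (adjusted p = 0.0834 and 0.1), after quantile normalization (1.17, adjusted p = 0.0519) and with sample number as a block (1.30, adjusted p = 0.0553), and that of Hsd3b1 without exposed homozygous array 1 (-0.47, adjusted p = 0.0904). Array weights ended the calls of Cyp17a1 (-4.14, adjusted p = 0.0584), Hsd3b1 and Hsd17b3 (adjusted p = 0.0939 and 0.289).

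Genotype without PTU gave no call among the members at day 25. Homozygous against wild-type testes gave 0 of 8 calls, with 12.7% of all genes called; Hsd3b1 (-0.46 ± 0.17, adjusted p = 0.094) and Akr1c14 (-0.56 ± 0.24, adjusted p = 0.139) had the smallest p, and Akr1c14 passed without the exposed homozygous arrays (adjusted p = 0.0452). Heterozygous against wild type gave 0 of 8 as well, with 22.6% called without PTU and 0.092% with PTU, where Akr1c14 had -0.96 ± 0.24 (adjusted p = 0.0995). The day 15 differences of Hsd17b3 and Hsd3b6 between unexposed genotypes have -0.63 ± 0.45 (adjusted p = 0.375) and -0.79 ± 0.36 (the shared probe set, adjusted p = 0.152) beside them at day 25.

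Markers of other cells differed along with the exposed homozygous group at day 25. Against unexposed homozygous testes, 38.4% of all genes were called higher and 32.8% lower in that group. All 3 precursor genes rose there, with a summed level of 12.21 to 12.59, against 10.64 to 10.83 in unexposed homozygous testes; Pdgfra, which marks Leydig precursors and other interstitial cells, read 10.80 to 11.31, against 9.24 to 9.73. Of 9 Sertoli genes 6 rose and 1 fell (14.65 to 14.74, against 14.14 to 14.32), and of 4 myoid genes 3 rose. All 3 spermatid genes fell (7.11 to 7.93, against 13.74 to 14.51), and of 6 spermatocyte genes 5 fell and 1 rose. Nr5a1, made by Leydig and Sertoli cells, read 9.61 to 9.79, against 9.62 to 9.71. Of the 2 adult Leydig markers tested 1 rose: Ptgds read 9.38 to 9.48, against 7.60 to 8.19, while Vcam1 read 9.81 to 9.89, against 8.91 to 9.54. The epididymal list (3 tested, 2 rose) reached 12.84 to 12.99, against 6.86 to 7.26, and 2 of 3 fat genes rose. Of 7 macrophage genes 3 fell and 1 rose. The part of these cells in the steroid gene values was not tested.

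**Figure D5:**
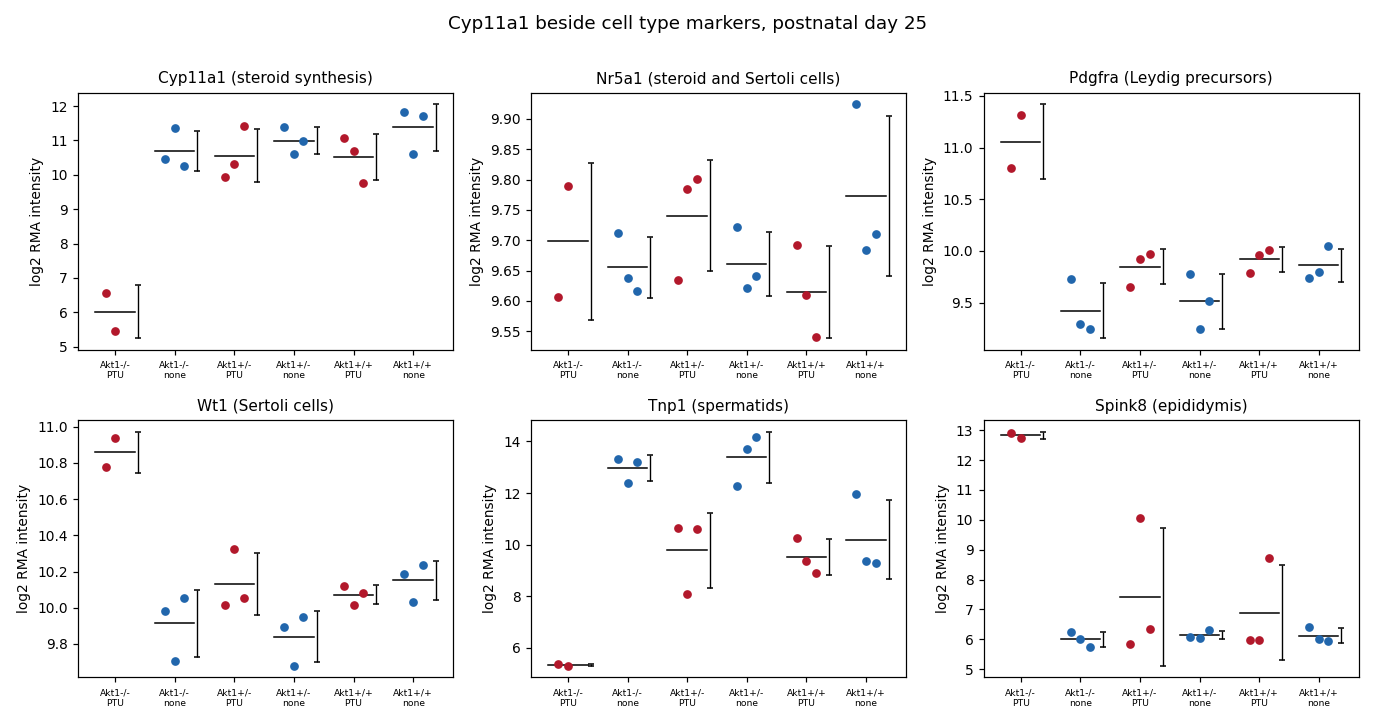
Cyp11a1 beside 5 cell type markers in each array at postnatal day 25, with the log2 RMA intensity on the vertical axis of each panel. Points are arrays (red with PTU, blue without), lines are group means and bars ± 1 SD; in the 2 exposed homozygous arrays Cyp11a1 and Tnp1 are low, Pdgfra, Wt1 and Spink8 are high and Nr5a1 lies within the range of the other groups.

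Within the groups of day 25, 9 of the 28 pairs passed by the exact test of Pearson's r. By rank, Hsd17b3 with Fdx1 and Cyp11a1 with Cyp17a1 missed the threshold (adjusted p = 0.0542 each), and the others of these pairs had 0.0152. Star went with Fdx1 (r = 0.846, rho = 0.85, p = 0.0021, adjusted p = 0.0198) and with Cyp17a1 (r = 0.839, rho = 0.824, p = 0.0035, adjusted p = 0.0243), and Cyp11a1 went with Fdx1 (r = 0.794, rho = 0.792, p = 0.0017, adjusted p = 0.0198). Without the 2 farthest arrays r was 0.835, 0.731 and 0.759, and without the Spink8 arrays 0.882, 0.896 and 0.881. Hsd17b3, the last enzyme, went with Cyp17a1 (r = 0.656, rho = 0.748, exact p = 0.0063, adjusted p = 0.0297) and with Fdx1 (r = 0.605, rho = 0.593, exact p = 0.0116, adjusted p = 0.0407). Cyp11a1 and Hsd11b1 ran against each other (r = -0.68, rho = -0.792, p = 0.0156, adjusted p = 0.0486; r = -0.616 without the 2 farthest). Star with Fdx1, Star with Cyp17a1 and Cyp17a1 with Fdx1 had an adjusted p under 0.05 at both ages by Pearson's r, but by rank at day 25 alone. Hsd3b6 entered the pairs at day 15 alone and Hsd11b1 at day 25 alone. No batch is labelled, and whether the arrays of a group were processed together is not given. At day 15 the homozygous and heterozygous groups are split between the array sets.

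Of 40 other genes of steroid metabolism and its control listed beside the members, 24 were tested at day 15 and 31 at day 25. At day 15, PTU raised 2 and lowered 3 on average, beside 3.88% and 8.09% of all genes. Hsd17b1, an estradiol-forming dehydrogenase, rose (0.81 ± 0.16, adjusted p = 0.00401), as did the transcription factor Gata4 (0.30 ± 0.08, adjusted p = 0.0266). Nr0b1, a repressor of steroid genes, fell (-0.45 ± 0.13, adjusted p = 0.0322), and so did H6pd, which feeds Hsd11b1 with NADPH (-0.26 ± 0.06, adjusted p = 0.0124), and Akr1c13 (-0.32 ± 0.08, adjusted p = 0.0172). Homozygous against wild-type unexposed testes gave 9 rises and 1 fall at day 15, beside 14.6% and 14.2% of all genes, among them the regulators Nr5a1 (0.54 ± 0.11, adjusted p = 0.00156), Gata4 (0.67 ± 0.14, adjusted p = 0.0023), Gata6 (0.47 ± 0.11, adjusted p = 0.00357) and Nr5a2 (0.49 ± 0.13, adjusted p = 0.00898). The median of the list was 0.32 and that of all genes 0.08.

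At day 25, PTU in homozygous testes raised 20 of the 31 and lowered 0, with a list median of 0.44. Of all genes, 38.4% were called higher and 32.8% lower in that contrast. Akr1c19 (2.01 ± 0.17), Hsd17b1 (1.45 ± 0.18), Hsd17b10 (1.25 ± 0.17), Hsd17b12 (1.21 ± 0.14), the cholesterol transfer gene Stard4 (1.08 ± 0.15) and the transcription factor Creb1 (0.96 ± 0.10) had the smallest p. In heterozygous testes 4 of 31 rose and 0 fell, beside 18.7% of all genes called in either direction, with Creb1 (0.41 ± 0.09, adjusted p = 0.00895) first, and in wild-type testes 0 of 31 passed.

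The genes whose level followed 3 of the members most closely over the arrays of an age, groups included, were named by Pearson correlation as a description. For Hsd3b6 at day 15 they were Actn3 (r = 0.978), Emb and Agmo (0.976 each), Tsx and Corin (0.967 each). For Hsd17b3 they were Kctd14 (0.971), Cxadr (0.953), Stambpl1 (0.95), Hecw2 (0.947) and Epdr1 (0.944). Star had looser company, led by Alas1 (0.878), the first enzyme of heme synthesis, and Sik1 (0.861), a kinase induced by cAMP, with S1pr3 (0.846), Acvr1 (0.823) and Per1 (0.822). At day 25 the first for Star were Mrap (0.817), the melanocortin receptor partner, Oxtr (0.814), Nr4a1 (0.795), a nuclear receptor induced by cAMP, Aqp2 (0.75) and Rasgrp1 (0.738), and for Hsd17b3 they were Aox1 (0.954), Akr1cl (0.914), Mettl26 (0.908), Tmem176b (0.893) and Apoc1 (0.87). These correlations run over 18 arrays at day 15 and 17 at day 25, and groups that differ add to them.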

How the data were processed

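Affymetrix arrays read total RNA of whole testes. The log2 values were made with RMA and deposited by the authors, per the labels and the submitters' processing notes (no version named). They were used as deposited. The platform annotation gave the symbol of each probe set; where a gene had several probe sets of 1 symbol, the one with the highest mean stood for it, and the member's other probe sets were fitted apart. A filter kept genes that exceeded, in 2 or more arrays, the 25th percentile of an age's values (5.56 and 4.76), which left 16710 of 19938 genes for day 15 and 16305 of 18194 for day 25.

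The limma package 3.58.1 under R 4.3.3 fitted 6 group means per age and 10 contrasts (lmFit, contrasts.fit, eBayes), with Benjamini-Hochberg adjustment over all tested genes and a threshold of 0.05. The script was tested on simulated data. The number of arrays limits precision: 1 exposed homozygous chip of day 25 is missing, since the authors rejected it, per the design text. The members, marker and pathway lists, contrasts and naming rule (the members; up to 6 other pathway genes with the smallest p per contrast among those passing; the 5 genes most like Star, Hsd17b3 and Hsd3b6, where tested) were chosen with earlier results of these data known.

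Sample numbers of the labels come with no litter or day. They were taken to pair the arrays of a comparison where every same-number correlation of residuals exceeded 0.1: at day 15 for PTU in heterozygous testes (0.391 to 0.444), homozygous against wild type with PTU (0.141 to 0.557) and heterozygous against wild type without (0.181 to 0.374), and at day 25 for PTU in wild type (0.233 to 0.396). Alternatives were no filter, every probe set, quantile normalization, array weights, the compared groups alone, sample number as a replicate block, the day 15 array set as a block, leaving out each array, and leaving out arrays with Spink8 above 7. At day 25 that last choice, the omission of exposed homozygous arrays, and the probe set of several symbols came after the values were seen. Promoters are from RefSeq, GRCm38.p6.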

Additional observations from a re-analysis of the deposited data

Results flagged for a closer look

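At day 25 the PTU effect differed between homozygous and wild-type testes, by limma's interaction, for Cyp11a1 (-3.80, adjusted p = 3.27e-04), Cyp17a1 (-3.55, adjusted p = 0.0191), Hsd17b3 (1.89, adjusted p = 0.0247) and Akr1c14 (1.78, adjusted p = 8.17e-04). The probe set shared by Hsd3b6, Hsd3b3 and Hsd3b2 gave -3.20 (adjusted p = 2.28e-04). All 5 rest on the same 2 exposed homozygous arrays, in which 59.4% of all genes were called by this interaction and in which spermatid transcripts were low and Spink8 high. Hsd17b3 was the one of these whose direction was opposite between the genotypes, at 1.06 in homozygous and -0.83 in wild-type testes, neither past the threshold by itself.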

How the results depend on the processing

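The number of members called was followed for 20 comparisons, and 50 differences of single genes, in 785 values under an alternative, of which 677 kept their direction and side of the threshold, 69 lost and 39 gained a call, and 0 reversed. At day 15 array weights gave 5 (homozygous against wild type, unexposed), 1 (heterozygous against wild type, unexposed) and 1 (homozygous interaction) against 2, 0 and 0. The compared groups alone gave 0 (PTU, homozygous), 6 (homozygous against wild type, unexposed) and 2 (heterozygous against wild type, unexposed). Array set as a block gave 1 for homozygous against wild type, unexposed, and without the Spink8 arrays 1, 0 and 0 members remained for PTU in wild type, PTU in homozygous and homozygous against wild type, unexposed. At day 25 array weights gave 1, 2, 2, 2, 1 and 2 for PTU in heterozygous, homozygous against wild type without and with PTU, heterozygous against wild type without and with PTU and the homozygous interaction. The compared groups alone gave 1 each for homozygous and heterozygous against wild type, unexposed. Without the exposed homozygous arrays there were 2 for PTU on average and 1 each for PTU in heterozygous, both genotypes against wild type unexposed, and heterozygous against wild type exposed; without the Spink8 arrays 0 on average and 1 each for both genotypes unexposed. Leaving out 1 array at day 15 gave 3 to 3 for PTU on average, 2 to 4 in wild type, 0 to 3 in heterozygous, 0 to 3 in homozygous, 1 to 2 for homozygous against wild type unexposed, 0 to 3 exposed and 0 to 1 for the homozygous interaction. At day 25 it gave 3 to 4 on average, 0 to 1 in heterozygous, 3 to 5 in homozygous, 0 to 1 for each genotype against wild type unexposed, 4 to 5 for homozygous against wild type exposed and 3 to 4 for the interaction, and 0 to 0 elsewhere. The replicate block moved the count for none of the 20 by over 1.5 times; it added Hsd3b6 in heterozygous testes at day 15 (adjusted p = 0.0441) and ended Hsd11b1 on average (0.26, adjusted p = 0.0532) and Hsd17b3 for homozygous against wild type exposed (adjusted p = 0.0553) at day 25, where the numbers do not pair all arrays. The cause of these moves was not tested, except that arrays left out lower the number of samples.

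Counts of all genes moved more. At day 15 array weights gave 3650, 6820, 499 and 1550 genes for PTU on average, in wild type, heterozygous and homozygous testes, and the fit without the Spink8 arrays 846, 831, 48 and 0, against 2001, 2553, 95 and 828; the compared groups alone gave 4370, 31 and 0 within the 3 genotypes. For homozygous against wild type they gave 7404 and 2476 against 4821 unexposed; exposed, 123 passed after quantile normalization, 1187 with array weights and 750 with the replicate block, against 0. For heterozygous against wild type unexposed, where 660 passed, array weights gave 3673, the replicate block 1303, the groups alone 1225, the array set block 285 and the fit without the Spink8 arrays 184. The homozygous interaction had 4904 with array weights and 1026 without the Spink8 arrays against 2734, and the heterozygous one 652 with array weights, 130 with the replicate block and 31 in the groups alone against 75. At day 25 PTU on average had 2855 without the exposed homozygous arrays and 27 without the Spink8 arrays against 10423, and over every probe set 17020; every probe set also gave 19480, 4012, 16954 and 15755 against 11615 (PTU, homozygous), 2065 and 9959 (homozygous against wild type, unexposed and exposed) and 9684 (homozygous interaction). Homozygous against wild type unexposed had 4871 with array weights, 3388 without the exposed homozygous and 3195 without the Spink8 arrays. PTU in wild type had 6 with array weights and 1 in the groups alone against 0, the heterozygous interaction 2003 with array weights against 0, and heterozygous against wild type exposed 0 to 2330 against 15. Quantile normalization gave a share of higher calls of 63.4% against 50.3% for the homozygous interaction at day 15, and of 58.7% against 42.2% for homozygous against wild type unexposed at day 25. Intensity near the filter limits Hsd11b1 at day 15 and the lowest Hsd3b6 arrays.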
